A study of Homo sapiens with 7 samples.

Results

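The 9 genes described here, MUC1, MUC2, MUC4, MUC5AC, MUC5B, MUC6, MUC13, MUC16 and MUC20, encode mucins, and they were taken by name from the 20007 protein-coding genes of GENCODE release 44. At each gene, the H3K4me1 ChIP-seq intervals that touched the gene body or the 20 kb on either side were counted, which gave 12 of the 64843 intervals of control cells and 16 of the 92135 intervals of KMT2D-depleted cells. The cells were SW1990, an established human pancreatic cancer line. The control cells (NC) carried a negative control shRNA and the depleted cells (KMT2D-KD) were made by shRNA knockdown of KMT2D, a methyltransferase of H3K4me1, the monomethylation of lysine 4 of histone H3. The transcription factor EBF2 and KMT2D itself were profiled as well, and 1 input library served as the reference for all 6 ChIP lists. With 1 library per target and condition there was no replicate spread, so no difference could be tested, no p-value is given, and intervals around counts cover counting error only. The labels do not say which cells the input came from, whether the knockdown line was a single clone, or how far KMT2D fell in these cells. The level of KMT2D was not analysed here.

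Mucins are long glycoproteins with stretches of serine and threonine that carry dense O-linked sugar chains. The gel-forming mucins (MUC2, MUC5AC, MUC5B and MUC6) are secreted and make mucus, and their genes lie side by side on the short arm of chromosome 11. The membrane mucins (MUC1, MUC4, MUC13, MUC16 and MUC20) stay anchored in the cell surface, where some of them take part in signalling. In pancreatic cancer, MUC1, MUC4, MUC5AC and MUC16 are well known as proteins that tumour cells often make, whereas MUC2 is better known from the intestine and MUC6 from gastric glands and small pancreatic ducts. H3K4me1 marks enhancers and the flanks of active promoters, and an interval of the mark says nothing by itself about how much of a gene is transcribed.

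H3K4me1 lay mainly at 2 of the 9 genes. MUC13 had 6 NC intervals and 7 KMT2D-KD intervals, and MUC1 had 4 and 5. MUC16 held 1 interval in each condition, at different places. MUC2 (0 and 2) and MUC5B (0 and 1) had intervals in KMT2D-KD alone, MUC20 (1 and 0) had one in NC alone, and MUC4, MUC5AC and MUC6 had none in either list. The 3 genes with no interval were 3 of 9, against 22.7% of all protein-coding genes. The 2 genes with intervals in KMT2D-KD alone stood beside 14.1% of all genes, and the 1 gene with an interval in NC alone beside 2.87%. With 9 genes, nothing was read from these differences.

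The bases under intervals followed the same order. At MUC13 the intervals covered 3073 bases of the 88.4 kb window in NC and 3917 bases in KMT2D-KD, a ratio of 1.27. At MUC1 they covered 1904 and 2433 bases of a 47.1 kb window, a ratio of 1.28. At MUC16 they covered 239 and 385 bases of a 202 kb window, a ratio of 1.61 between intervals that do not overlap. All 3 genes with intervals in both conditions thus had more covered bases in KMT2D-KD and none reached the 2-fold mark, which 37.9% of the 12082 genes with intervals in both lists reached upwards and 2.48% reached downwards. Across those genes the median ratio was 1.68, and across the 3 mucin genes it was 1.28.

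**Figure D1:**
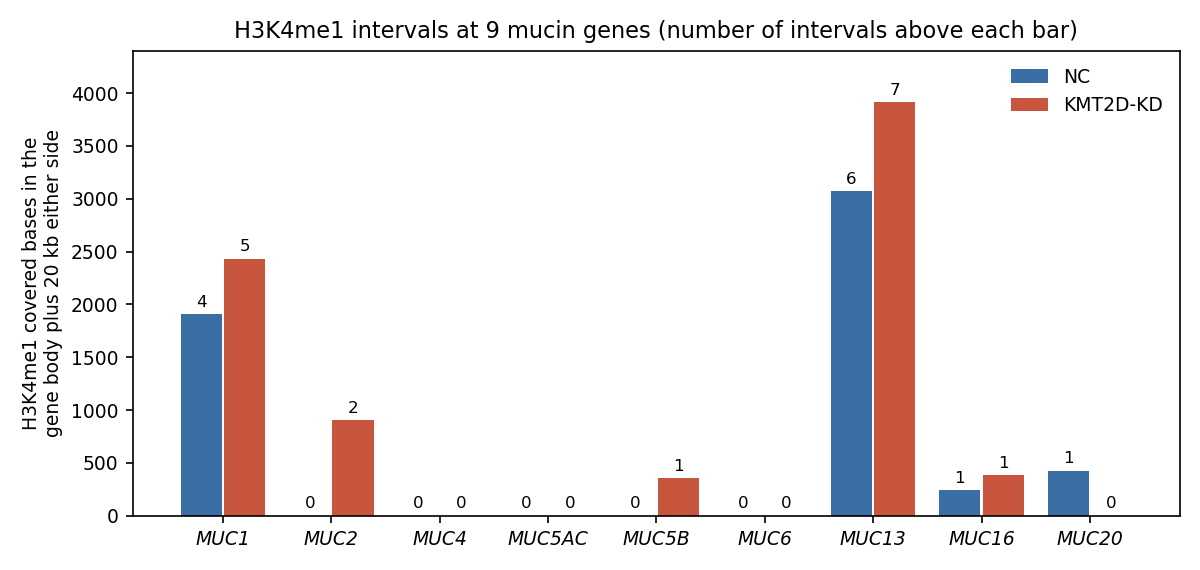
Bars give the bases covered by H3K4me1 intervals (vertical axis, from 0) in the body of each of the 9 mucin genes plus 20 kb on either side, in the NC and the KMT2D-KD library, with the number of intervals above each bar and 1 library per bar. MUC13 (3073 and 3917 bases) and MUC1 (1904 and 2433 bases) hold most of the covered bases, and MUC4, MUC5AC and MUC6 hold none.

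The whole KMT2D-KD list was longer than the NC list, so the mucin counts have to be read against it. It held 1.42 times as many intervals and 1.54 times as many covered bases, on the log2 scale 0.51 and 0.62. In the union of the 9 windows, which spans 750 kb because neighbouring windows overlap, the log2 ratio was 0.42 for intervals (−0.76 to 1.63) and 0.50 for covered bases (5643 and 7996). The mucin windows were therefore close to the ratio of the whole lists, and the counting interval of 12 against 16 includes no change at all.

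**Figure D2:**
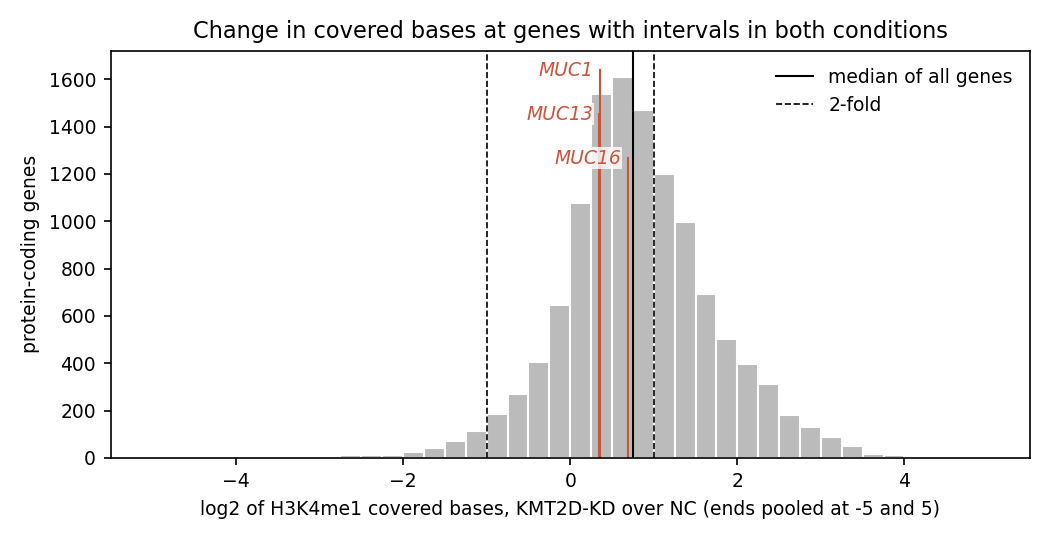
The histogram shows the log2 ratio of H3K4me1 covered bases, KMT2D-KD over NC, for the 12082 protein-coding genes with intervals in both conditions, with the median (0.75) as a solid line and a change of 2-fold as dashed lines. MUC1 (0.35), MUC13 (0.35) and MUC16 (0.69) lie above 0, below the median of all genes and inside the 2-fold lines.

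The share of the window covered also set MUC1 and MUC13 apart from the other mucins within each library. Of the MUC1 window 4.04% was covered in NC and 5.17% in KMT2D-KD, more than in 89.1% and 84.3% of all protein-coding genes. The MUC13 window was covered to 3.48% and 4.43%, more than in 86.7% and 80.9% of genes. These ranks are of windows, whose flanks hold other genes. The MUC1 gene body held 277 of the 1904 covered bases in NC and 935 of 2433 in KMT2D-KD. The MUC13 gene body held 1671 of 3073 and 2568 of 3917. This body is the GENCODE record, which begins upstream of the canonical transcript. Intervals of 671 and 206 bases in NC, and of 347 and 445 bases in KMT2D-KD, lay in that upstream part. The median gene had 0.51% of its window covered in NC and 1.18% in KMT2D-KD. MUC20 (0.709% in NC) and MUC2 (1.19% in KMT2D-KD) lay near these medians in the 1 list that marked them, and MUC16 (0.119% and 0.191%) and MUC5B (0.454% in KMT2D-KD) lay below.

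The depth behind these calls was recovered from the lists themselves, since fold enrichment and p-value together fix a whole number of fragments at the summit of an interval. The mucin intervals rested on 9 to 18 fragments in NC and 9 to 19 in KMT2D-KD, over a background of 1.85 to 3.70 and 1.64 to 3.59 fragments. At the lowest background anywhere in the lists, the fewest fragments that made a call were 8 in NC and 7 in KMT2D-KD. A place without an interval is hence a place that was not called at this depth. It may still have held several fragments, and absence of the mark was not shown at any mucin gene.

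MUC1, the membrane mucin that covers the apical surface of duct cells, had all 4 of its NC intervals matched in KMT2D-KD. The gene occupies chr1:155185824-155192916 on the minus strand (hg38). Inside it lay 1 NC interval at chr1:155188026-155188302, with a fold enrichment of 4.40 over the input and 12 fragments at a summit in intron 3. The KMT2D-KD interval there was wider, chr1:155188020-155188428, with a fold enrichment of 4.12 and 10 fragments at a summit in the coding part of exon 3. Both summits lay downstream of the start, at 4.77 and 4.56 kb. The log2 ratio of fragments, not corrected for depth, was −0.26, and its counting interval included 0 (−1.63 to 1.07).

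The 3 other matched MUC1 intervals lay in the flanks and over other genes. The strongest MUC1 interval in NC was chr1:155209971-155210906, 17.5 kb upstream and inside MTX1, enriched 5.54-fold with a −log10 q of 7.11, and its KMT2D-KD partner had 5.25 and 6.29. The strongest in KMT2D-KD was chr1:155172151-155172491, 20.6 kb downstream of the start and inside KRTCAP2, enriched 6.40-fold with a −log10 q of 8.61 against 5.23 and 5.81 in NC. The remaining pair lay in THBS3, 12.9 kb upstream in NC, and was weak in both lists (fold enrichment 3.44 and 3.09). Which gene a flanking interval belongs to was not tested. The 1 MUC1 interval of KMT2D-KD alone, chr1:155186379-155186904 in intron 7, had a fold enrichment of 3.27 and 14 fragments, and lay 1122 bases from the nearest NC interval.

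The interval inside MUC1 ended just short of the tandem repeat for which the gene is known. The longest run of tandem repetition in the MUC1 gene body had a period of 60 bases, spanned chr1:155188508-155192056 and made up 50% of the gene, and 258 of its 3549 bases were in a coding exon as GENCODE gives them. The KMT2D-KD interval stopped 80 bases from it and the NC interval 206 bases from it. Neither H3K4me1 list had an interval over the repeat. Whether reads from repeated sequence could be placed there was not tested, so the lack of a call does not show a lack of the mark. The sequence around the KMT2D-KD summit is shown to place the element, on the plus strand of hg38 at chr1:155188257-155188456, with no part in capitals because no motif searched was found in it.
MUC1 interval in KMT2D-KD: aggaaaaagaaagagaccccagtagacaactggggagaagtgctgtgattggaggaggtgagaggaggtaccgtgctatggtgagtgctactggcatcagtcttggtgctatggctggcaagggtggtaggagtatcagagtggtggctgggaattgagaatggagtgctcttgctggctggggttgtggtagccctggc

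**Figure D3:**
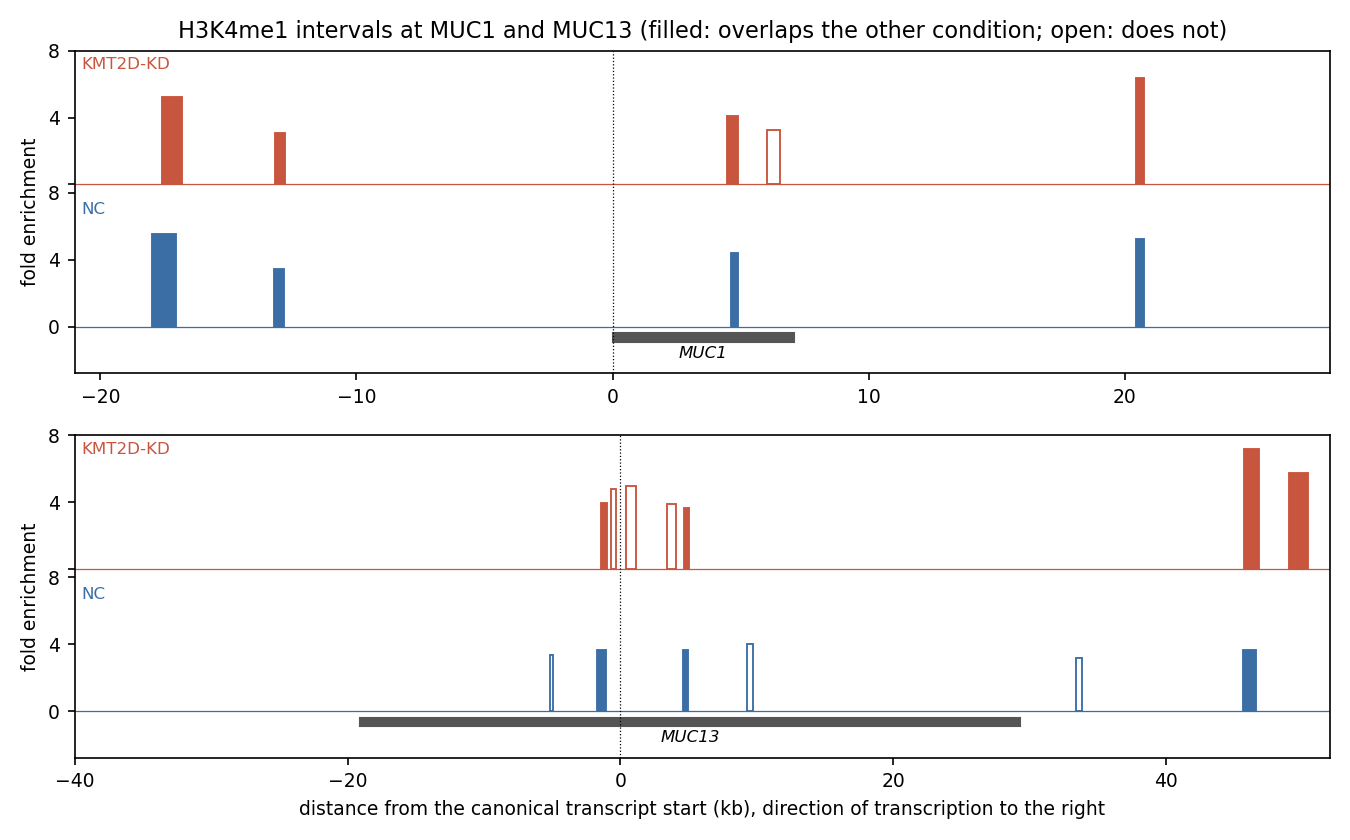
H3K4me1 intervals around MUC1 (top) and MUC13 (bottom) are drawn at their distance from the canonical transcript start (horizontal axis, kb), with fold enrichment over the input as height, KMT2D-KD above NC and the gene record as a grey bar. Filled boxes overlap an interval of the other condition and open boxes do not. KMT2D-KD had 3 open boxes at MUC13 with summits up to 3.99 kb from the start, and the summits of the 3 open NC boxes lay at least 5.08 kb from it.

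MUC13, a membrane mucin of the gut lining that is also made by pancreatic tumours, had the most intervals found in 1 condition alone, 3 in NC and 3 in KMT2D-KD. The gene record spans chr3:124905442-124953819 on the minus strand, whereas the canonical transcript and the RefSeq gene both begin at 124934751, inside that record. Within 1000 bases of this start KMT2D-KD had 3 intervals and NC had none. The nearest NC interval lay 1065 bases away, just past that limit, so the contrast of 3 with 0 depends on where the limit is put. Across all protein-coding genes, 7.51% had an interval within 1000 bases of the canonical start in KMT2D-KD alone, and MUC13 was the 1 mucin gene among them.

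The 3 intervals near the MUC13 start were all moderate in strength. The one at chr3:124935065-124935411, with its summit 0.46 kb upstream of the start, had a fold enrichment of 4.77, 16 fragments and a −log10 q of 5.81. The one at chr3:124933599-124934347, with its summit 0.63 kb downstream in intron 1, had 4.94, 16 fragments and 6.10. These 2 were the strongest KMT2D-KD intervals of any mucin gene that overlapped no NC interval. The third, chr3:124935722-124936166, had 3.93 and 13 fragments, and it overlapped the NC interval chr3:124935816-124936486, which had 3.64 and also 13 fragments. The nearest NC interval to the first of them was 405 bases away and that to the second 1469 bases away. For comparison, an interval within 1000 bases of the canonical start was found at 5.71% of all genes in NC and at 11.2% in KMT2D-KD.

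The sequences at the MUC13 start are shown because this is where the 2 lists differed. Capitals mark matches on either strand to the AP-1 motif TGANTCA, the GATA motif AGATAA or the TEAD motif GGAATG. The promoter is the 250 bases before the start as RefSeq gives them (GRCh38.p14), chr3:124934752-124935001 on the minus strand. The other sequences are the 200 bases around the summits of the 2 KMT2D-KD intervals, on the plus strand of hg38, at chr3:124935109-124935308 upstream and chr3:124934017-124934216 in intron 1.
MUC13 promoter: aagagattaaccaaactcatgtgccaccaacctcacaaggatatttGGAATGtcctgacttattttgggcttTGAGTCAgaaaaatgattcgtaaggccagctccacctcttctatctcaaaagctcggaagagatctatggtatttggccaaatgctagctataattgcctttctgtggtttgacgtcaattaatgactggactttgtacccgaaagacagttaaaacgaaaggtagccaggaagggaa
MUC13 upstream interval: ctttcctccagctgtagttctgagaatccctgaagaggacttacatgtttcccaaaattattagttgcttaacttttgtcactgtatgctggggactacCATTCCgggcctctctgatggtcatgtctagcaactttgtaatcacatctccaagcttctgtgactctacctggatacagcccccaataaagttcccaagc
MUC13 intron 1 interval: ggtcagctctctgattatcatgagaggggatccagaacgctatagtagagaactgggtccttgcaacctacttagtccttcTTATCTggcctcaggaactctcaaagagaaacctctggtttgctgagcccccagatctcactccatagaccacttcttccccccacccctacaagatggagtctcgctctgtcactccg

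Letters of these motifs are common, so the matches are a description of the sequence alone. The TEAD motif was found around 12.1% of all KMT2D-KD summits and in 11.9% of the 35116 RefSeq promoters, AP-1 in 6.57% of promoters, and GATA around 11.5% of KMT2D-KD summits. Over all mucin intervals the TEAD motif stood in 3 of 12 NC and 3 of 16 KMT2D-KD windows. The AP-1 motif stood in 1 of 12 NC windows and in none of 16 in KMT2D-KD, beside 8.06% and 7.78% of the whole lists. The core of the EBF motif, CCCNNGGG, stood in 1 of 12 NC and 2 of 16 KMT2D-KD windows, all at MUC1, beside 3.74% and 4.33% of the whole lists. The FOXA motif TGTTTAC and the ETS motif CCGGAAG were in none of the mucin windows, and their shares of the whole lists were 2.74% to 3.16% and 0.433% to 0.558%.

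Elsewhere at MUC13, 1 element in intron 1 was called in both libraries. It lay at chr3:124929784-124930143 in NC and chr3:124929743-124930096 in KMT2D-KD, with 12 and 11 fragments and summits 7 bases apart. A further KMT2D-KD interval, chr3:124930644-124931316, followed 501 bases from it and was enriched 3.90-fold. In NC alone there were intervals at chr3:124925017-124925450 in intron 2 (fold enrichment 4.04, 18 fragments), at chr3:124939677-124939882 upstream (3.35, 14 fragments) and at chr3:124900926-124901344 past the end of the gene (3.18, 12 fragments). The first of these had the highest −log10 q, 4.80, of any NC interval at a mucin gene that overlapped no KMT2D-KD interval. It lay 4293 bases from the nearest one.

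The strongest H3K4me1 interval of any mucin window was in KMT2D-KD at chr3:124887946-124889010, in the MUC13 flank but inside ITGB5, the gene of an integrin subunit. It had a fold enrichment of 7.16, 19 fragments and a −log10 q of 10.5, higher than 94.0% of the whole list. The NC interval there, chr3:124888121-124889103, had 3.67, 14 fragments and 3.39. The fold enrichment thus differed by more than the fragments did, and the background under the summit differed as well, 1.79 fragments in KMT2D-KD and 3.09 in NC. The log2 ratio of the fragments, not corrected for depth, was 0.44 (−0.63 to 1.55). A second KMT2D-KD interval in ITGB5, chr3:124884358-124885725, reached only partly into the MUC13 window, and the NC interval it overlapped lay outside.

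The 7 pairs of intervals that both libraries shared were 4 at MUC1 and 3 at MUC13. Fragments at the summit ranged from 12 to 18 in NC and from 10 to 19 in KMT2D-KD. The log2 ratios lay between −0.26 and 0.44, and the counting interval of each of the 7 included 0. The fold enrichment was higher in KMT2D-KD at 3 of the 7, and the interval was wider in KMT2D-KD at 3 of the 7. These counting intervals are wide, with bounds past a 2-fold change in at least 1 direction at each pair. A change of that size in that direction therefore remained possible.

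**Figure D4:**
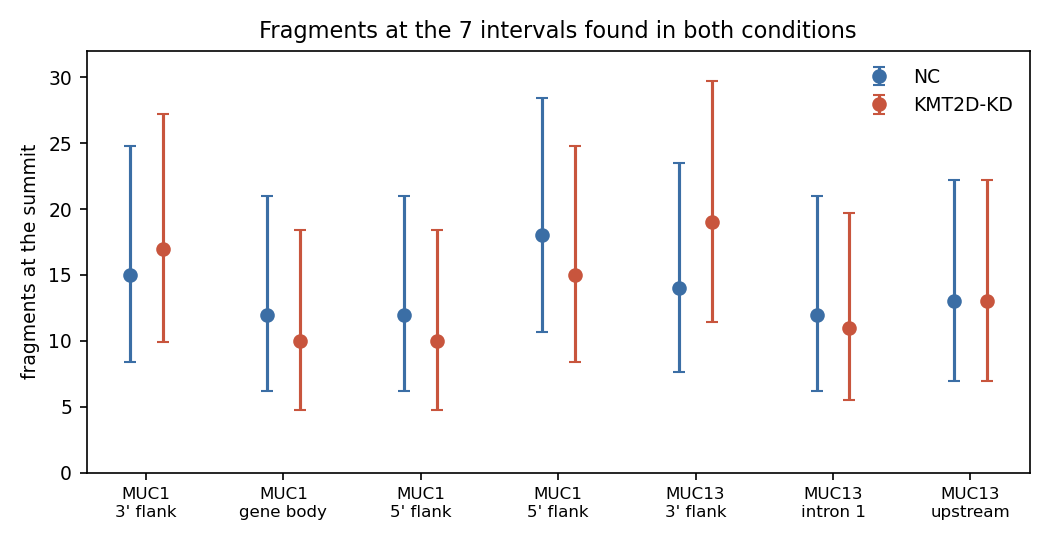
Points show the recovered number of fragments at the summit (vertical axis) for the 7 places where an NC and a KMT2D-KD interval overlap, 4 at MUC1 and 3 at MUC13, and bars are exact Poisson 95% intervals for counting error in 1 library each. The bars of the 2 libraries overlap at all 7 places.

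In all, 7 of 12 NC intervals (58.3%, 27.7% to 84.8%) overlapped a KMT2D-KD interval and 8 of 16 KMT2D-KD intervals (50%, 24.7% to 75.3%) overlapped an NC interval. Over the whole lists these shares were 69.7% and 46.6%, and both lay inside the mucin intervals. Widths of the mucin intervals were 206 to 983 bases in NC (median 404.5) and 341 to 1368 bases in KMT2D-KD (median 427), and fold enrichments 3.18 to 5.54 and 3.08 to 7.16. A −log10 q of at least 5 was reached by 2 in NC, both at MUC1, and by 6 in KMT2D-KD, of which 2 were at MUC1 and 4 at MUC13.

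The gel-forming mucin genes on chromosome 11 lay in a long stretch without intervals. In NC no interval was called over 344 kb around MUC6, MUC2, MUC5AC and MUC5B, a length that 2.54% of the gaps between NC intervals reached, while the median gap was 4.69 kb. In KMT2D-KD the stretch was broken by 2 intervals between MUC6 and MUC2 into a gap of 105 kb around MUC6, reached by 6.41% of gaps, and a gap of 209 kb around MUC2, MUC5AC and MUC5B, reached by 2.85%. The median gap in KMT2D-KD was 2.96 kb. A gap that holds a whole gene is at least as long as that gene, and these shares count gaps, not genes or bases. They therefore do not show that the stretch is unusual for genes, and nothing was read from them. None of the 4 gene bodies held an interval in either library. MUC5AC, the mucin of the gastric surface that pancreatic tumours often make, was 95.9 kb from its nearest KMT2D-KD interval and 153 kb from its nearest NC interval, as measured from its start.

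The 2 KMT2D-KD intervals beside MUC2 were modest. The one at chr11:1060131-1060477, with a summit 14.5 kb upstream of MUC2, had a fold enrichment of 4.55 and 11 fragments. The one at chr11:1061501-1062055, 13.2 kb upstream, had 3.65 and 9 fragments. The first lay 23.4 kb from the start of MUC6, just outside the MUC6 window, so its assignment to MUC2 comes from the 20 kb limit. The nearest NC interval was 93889 bases from it. At MUC5B the 1 KMT2D-KD interval, chr11:1271376-1271734, lay 9204 bases past the 3′ end, and its enrichment over the input was 3.08-fold with 11 fragments. That was the lowest enrichment of the 28 mucin intervals.

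Away from chromosome 11, MUC4 and MUC20 shared a stretch on chromosome 3. MUC4 is a large membrane mucin known for its appearance in pancreatic carcinoma, and neither library had an interval in its 65.2 kb body. The gap around MUC4 and MUC20 measured 131 kb in NC, and in KMT2D-KD it measured 136 kb. The 1 interval of NC alone, chr3:195716383-195716809, lay 4.2 kb upstream of MUC20, a small cell-surface mucin, with a fold enrichment of 3.62 and 11 fragments. The nearest KMT2D-KD interval was 17.9 kb from it.

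MUC16, the very large membrane mucin that carries a serum marker of ovarian and pancreatic cancer, had 1 weak interval in each library. The NC interval, chr19:8951692-8951930, lay in the coding part of exon 3 with a fold enrichment of 3.51 and 9 fragments, the fewest of any mucin interval in NC. The KMT2D-KD interval, chr19:9017743-9018127, lay 7.7 kb upstream of the GENCODE gene record with 4.02 and 10 fragments. RefSeq begins MUC16 at 9065751, farther out, and in that model the KMT2D-KD interval is inside the gene. An NC interval 43.5 kb upstream of the GENCODE record is inside the RefSeq gene too. The nearest intervals to the RefSeq start lay 11636 bases from it in NC and 3345 bases in KMT2D-KD. These were outside the window used here, so the count of 1 interval in each library rests on the GENCODE record. The places were 65813 bases apart. The KMT2D-KD list had a gap of 382 kb over the GENCODE gene body, a length that 1.33% of its gaps reached. That body alone is 162 kb long, so any gap over it is long by construction. The share does not rank MUC16 among genes.

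**Figure D5:**
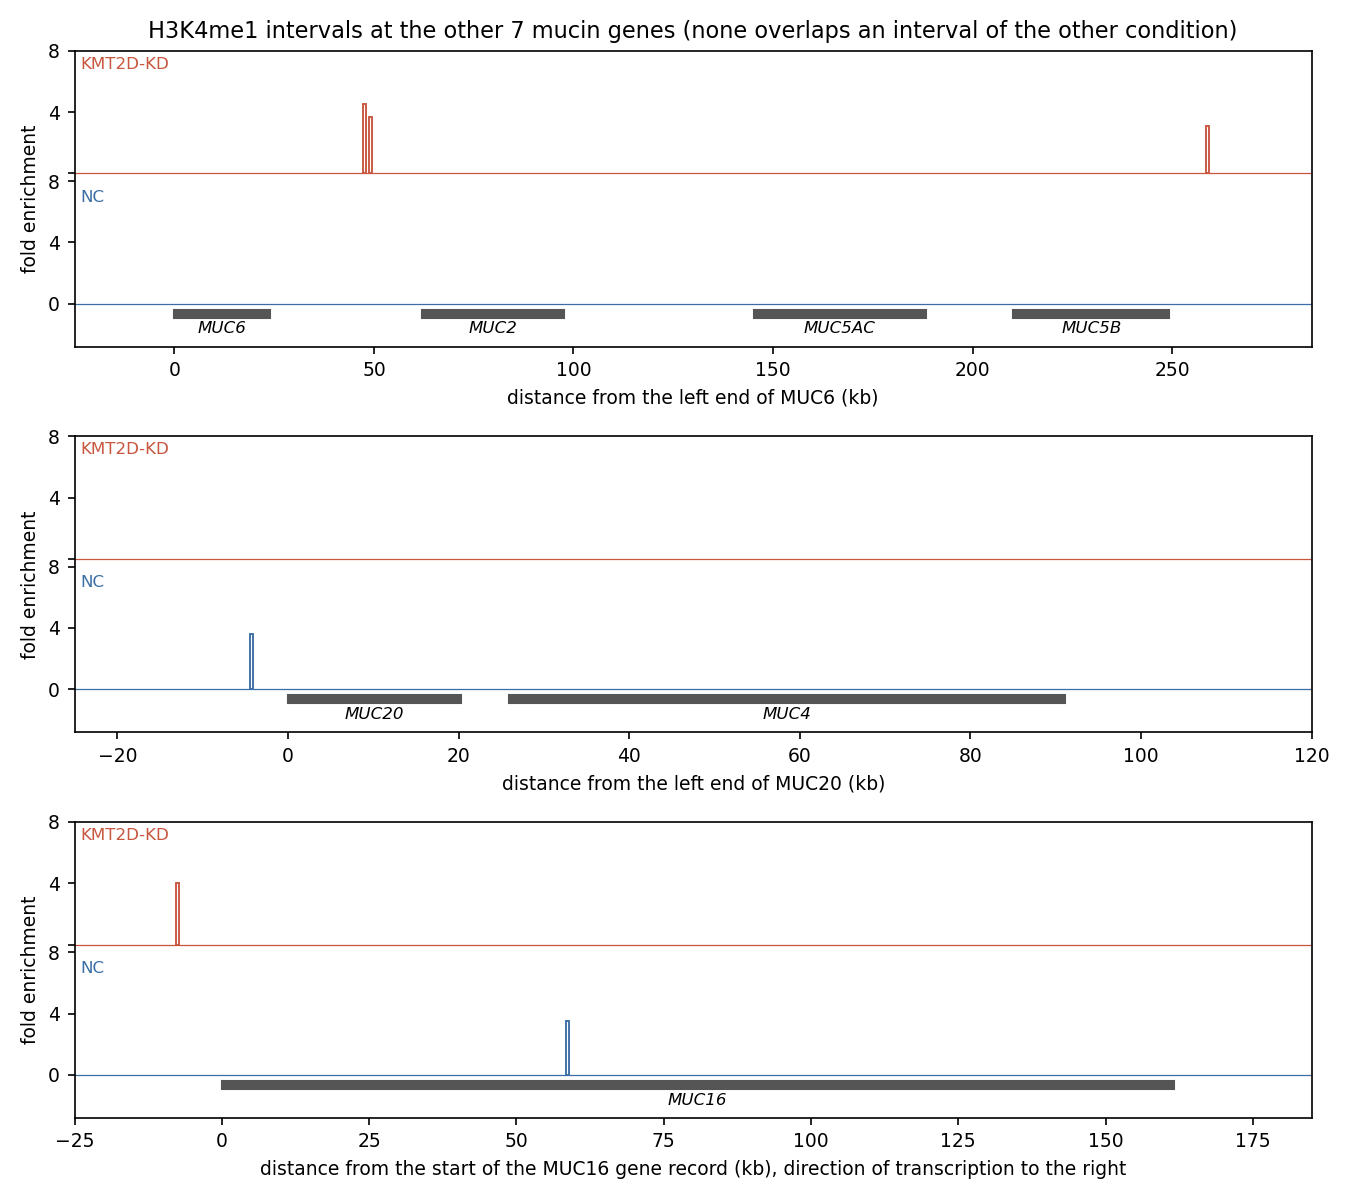
H3K4me1 intervals at MUC6, MUC2, MUC5AC and MUC5B (top), MUC20 and MUC4 (middle) and MUC16 (bottom) are drawn by distance in kb from a gene end, with fold enrichment over the input as height, KMT2D-KD above NC and gene records as grey bars. The 4 KMT2D-KD intervals and the 2 NC intervals all lie at places without an interval of the other condition, and 1 of the 6, the NC interval at MUC16, is inside a gene body.

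The sequence at the MUC16 interval of NC is shown because it is the 1 interval of either library that lay in the coding exon of a mucin gene other than MUC1. It is the 200 bases around the summit on the plus strand of hg38, at chr19:8951688-8951887, in lower case since none of the motifs searched was found. How multiply mapped reads were treated is not given in the sources used here, and its part in these calls was not tested.
MUC16 interval in NC: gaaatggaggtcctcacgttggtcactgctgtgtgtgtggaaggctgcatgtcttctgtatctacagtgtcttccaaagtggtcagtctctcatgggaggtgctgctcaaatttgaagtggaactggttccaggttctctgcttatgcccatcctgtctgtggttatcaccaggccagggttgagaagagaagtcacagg

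KMT2D and EBF2 were not called at any mucin gene. The 4 lists were short, with 238 (NC) and 318 (KMT2D-KD) intervals for KMT2D, and 293 and 311 for EBF2. None of them touched a mucin gene body, the 20 kb on either side or the 50 kb on either side. A count of 0 allows a share of up to 1.26% and 0.943% of the KMT2D lists and 1.02% and 0.965% of the EBF2 lists. With lists of this length, few genes of any kind could hold one of their intervals.

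The nearest were at MUC5B in KMT2D-KD, where 2 KMT2D intervals lay 94.1 and 94.6 kb past the gene, at chr11:1356321-1356564 (fold enrichment 11.9) and chr11:1356749-1356955 (6.68). An EBF2 interval of the same cells, chr11:1356630-1356900 (6.50), overlapped the second of these and began before it, at 94.5 kb. In NC the nearest EBF2 interval to MUC5B was 492 kb away and the nearest KMT2D interval 9.98 Mb away. That NC EBF2 interval, chr11:1754412-1754702 (20.5), overlapped KMT2D-KD intervals of both KMT2D (22.1) and EBF2 (21.4). Why intervals of different targets fell at the same places was not tested. At the members outside chromosome 11 the nearest interval in each of the 4 lists was between 1.01 and 68.6 Mb away.

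The coding tandem repeats of the mucins, which encode their sugar-bearing domains, were searched as possible places of KMT2D and EBF2 intervals. A script took the best-scoring run of tandem repetition with a period of 9 to 600 bases in the longest coding exon, and again in the whole gene body. Over all 9 genes and both searches, no KMT2D, EBF2 or H3K4me1 interval lay over a repeat found this way, in either condition. The KMT2D and EBF2 lists covered only 0.0776 to 0.0955 Mb each over the whole genome, so little can be read from a count of 0. Calls in near-identical copies also depend on how multiply mapped reads were treated, which was not tested. MUC4 had the longest, 9.84 kb with a period of 48 bases and 86.1% identity from one copy to the next, and the nearest H3K4me1 interval lay 59.3 kb from it in NC, while in KMT2D-KD it lay at 45.5 kb. MUC2 had 4.02 kb with a period of 69 bases and MUC1 3.55 kb with a period of 60 bases, both mostly or wholly outside the coding exons that GENCODE gives. MUC5AC had 2.64 kb with a period of 120 bases inside its longest coding exon, and MUC20 had 680 bases with a period of 57 bases and 99.4% identity.

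At MUC5B, MUC6, MUC13 and MUC16 the runs that this search found were short or held few copies. It read unbroken genomic sequence with periods of at most 600 bases. A repeat whose units lie farther apart in the genome, for example with introns between them, could not be found. Whether these genes hold such repeats was not tested. At MUC6 the search gave 2.11 copies with a period of 507 bases and at MUC16 1.94 copies with a period of 492 bases. At MUC5B and MUC13 the best run of the gene body held only 12 and 0 coding bases. The first unit of each clear repeat, in the direction of transcription, is shown to make the repetition visible. The units come from hg38 at chr1:155191997-155192056, chr11:1095739-1095807, chr3:195788615-195788662 and chr3:195725121-195725177, with the strand of each gene. The number of copies in SW1990 cells was not measured.
MUC1 unit: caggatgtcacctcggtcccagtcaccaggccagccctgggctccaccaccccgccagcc
MUC2 unit: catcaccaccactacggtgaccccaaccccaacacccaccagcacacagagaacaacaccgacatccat
MUC4 unit: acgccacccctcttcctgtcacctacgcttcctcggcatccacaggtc
MUC20 unit: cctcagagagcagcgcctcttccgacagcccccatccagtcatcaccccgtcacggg

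Genes that work with the mucins were counted in the same windows, from lists drawn up with earlier results of these data known. Of 11 other mucins with a gene record, 5 had more and 3 had fewer covered bases in KMT2D-KD, and none of the 6 with intervals in both conditions reached 2-fold in either direction. EMCN was marked in KMT2D-KD alone and CD164 in NC alone, and 3 had no interval. Of 21 enzymes that build O-linked sugar chains, 14 had more, 3 fewer and 4 none, and 4 of the 14 were marked in KMT2D-KD alone, beside 14.1% of all genes. Of the 13 with intervals in both conditions 1 reached 2-fold, GALNT1, which attaches the first sugar (1471 and 3015 bases, a ratio of 2.05). Among 10 partners of mucin in the secretory granule and mucus, 6 had more and 4 none, and 1 of the 6, FCGBP, a protein of mucus, reached 2-fold (736 and 2752 bases, 3.74). The share of all genes that reached 2-fold upwards was 37.9%, and nothing was read from counts this small.

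Of 13 regulators of mucin genes, 9 had more covered bases in KMT2D-KD, 1 had fewer and 3 had none. Of the 9, 3 had intervals in KMT2D-KD alone, beside 14.1% of all genes. A ratio of 2 or more was reached by 4 of the 6 with intervals in both conditions, beside 37.9% of all such genes, among them the transcription factors KLF4 (1299 and 2988 bases, 2.30-fold), CREB3L1 (2598 and 5541, 2.13-fold) and GATA4 (1216 and 2521, 2.07-fold). FOXA1, the pioneer factor of many epithelia, was the 1 with an interval in NC alone. The median log2 ratio over members with intervals in both conditions was 0.25 for other mucins, 0.34 for the enzymes, 0.53 for the granule partners and 1.07 for the regulators, beside 0.75 over all genes, and these lists of 6, 13, 6 and 6 genes allow no comparison between them.

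The identity of the cells was checked in the same way. All 7 ductal epithelial markers had H3K4me1 intervals in both libraries, and in NC their windows were covered from 0.496% at EPCAM, an adhesion molecule of epithelia, to 29.3% at KRT7, a keratin of duct cells. The windows of MUC1 (4.04%) and MUC13 (3.48%), with their flanks over other genes, lay inside this range. They were below KRT19 (4.28%), another duct keratin, and SOX9 (4.23%), a transcription factor of duct cells, and above CDH1, the gene of E-cadherin. Intervals were also found at 7 of 8 markers of blood, vessel and connective tissue cells, and at 2 of 3 acinar markers, so this measure does not separate cell types.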

How the data were processed

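ChIP-seq of KMT2D, EBF2 and H3K4me1 was made in NC and KMT2D-KD SW1990 cells, with groups taken from the sample titles. The 6 lists were used as deposited. The authors' processing notes name BWA, MACS2, HOMER and the build hg38, with versions not given in the sources used here. The deposited columns hold, per interval, the enrichment over input at the summit as a ratio, and the p-value and q-value on a −log10 scale. The weakest interval of each list had a q-value between 0.0382 and 0.0498.

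Coordinates are on hg38, counted from 1. Fragments were recovered at a tolerance of 0.001 in −log10 p, for at least 99.6% of the intervals tried in each list. Intervals were shared at an overlap of at least 1 base. Shares have exact Clopper-Pearson 95% intervals and fragments exact Poisson ones, and the limit for a count of 0 is 3 counts. Promoter distances used the canonical transcript of each gene. Named genes were all 9 members, their highest intervals by −log10 q and the 3 highest of each condition without a partner, and other genes past 2-fold, at most 4 per list, of which 1 is not reported here. The members and lists were chosen with earlier results of these data known. The motif and canonical start counts were chosen after seeing the data. Scripts were tested on simulated data. Python 3.11.15, numpy 2.4.6, scipy 1.17.1 and pysam 0.24.0 were used. No separate list of the input was analysed here.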

Additional observations from a re-analysis of the deposited data

How the results depend on the processing

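Of 59 alternatives, 48 stayed close to the reported values, 11 moved and 0 were counted as reversing a called direction. No direction was called for the mucin counts, so for them the last number was fixed in advance. The log2 ratio of intervals had the other sign with windows of 5 kb, given below, and was counted as close. Keeping intervals with a −log10 q of 5 or more raised the log2 ratio of covered bases in the mucin windows to 1.53, and gave 2 of 2 NC intervals (100%) with a KMT2D-KD partner, as did a fold enrichment of at least 5 (100%). The number of all genes at least 2-fold higher in KMT2D-KD was 4583 of 12082 with intervals in both conditions (37.9%). It was 2562 of 7823 (32.7%) in the gene body alone, 2568 of 5447 (47.1%) at that −log10 q, 2892 of 11442 (25.3%) when both lists had the same length by −log10 q, and 7117 (58.9%) at a fold of 1.5. The number at least 2-fold lower was 300 (2.48%), and under the last 3 of these settings it was 168 (3.08%), 610 (5.33%) and 656 (5.43%), and 491 (4.06%) for numbers of intervals. Windows of 5 kb gave 8 NC and 7 KMT2D-KD intervals, a log2 ratio of −0.19 (−1.89 to 1.47), whereas the gene bodies alone gave 6 and 7, and windows of 50 kb gave 34 and 48. The number of KMT2D and EBF2 intervals was 0 under each alternative tried. The cause of these changes was not tested. No paired analysis was possible because each group had 1 library and no test was made. Depth limits all calls, with 9 to 19 fragments behind a mucin interval.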
